A study of Mus musculus with 4 samples.

Results

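The Kruppel-like factor (KLF) genes Klf2, Klf4, Klf5, Klf6, Klf9, Klf10, Klf13 and Klf15 were examined for chromatin binding of NR1D1 in primary vascular smooth muscle cells from the aorta of wild-type mice. Members were all peaks of the PBS and vasostatin-2 lists that overlapped the RefSeq span of one of these 8 genes extended by 50 kb on each side. This gave 11 of the 7377 PBS peaks and 7 of the 8816 vasostatin-2 peaks. NR1D1 (REV-ERB alpha) is a nuclear receptor of the circadian clock that represses transcription. It was mapped by CUT&Tag, in which an antibody directs a transposase to chromatin and the DNA next to the bound protein is released and sequenced. The cells grew in serum-containing medium and received either vasostatin-2, a peptide from chromogranin A, or PBS (phosphate-buffered saline) for 24 h.

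Each treatment had 1 library with the NR1D1 antibody and 1 with IgG, all labelled as the same batch. Only the NR1D1 libraries are described, the IgG ones being not analysed here. How many mice were pooled is not given in the sources used here. With 1 NR1D1 library per treatment no difference has a replicate error and none was tested. Intervals on fragments, peaks and ratios cover counting error only. Peak lists hold no expression values, so the smooth muscle identity of the cells was not checked here. Summits were low throughout, with a median of 8 fragments over all PBS peaks and 7 over all vasostatin-2 peaks. From the recovered background the vasostatin-2 library was inferred to be 1.32 times as deep. This assumes equal settings and peaks called without IgG, neither of which is stated.

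KLF proteins are zinc finger transcription factors that bind GC-rich and CACCC-type sequences through a shared C-terminal domain, while the rest of each protein recruits activators or repressors. In vascular smooth muscle Klf4 is known for switching cells from the contractile to the synthetic state, and Klf5 for promoting growth and remodelling after injury. Klf9, Klf10 and Klf15 are known as rhythmic genes that carry clock and hormone signals into metabolism and growth control. NR1D1 itself is known to bind the RORE, a hexamer with an A/T-rich flank, and can also reach DNA through other proteins.

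Most of these genes carried a PBS peak at a gene end, and few carried a vasostatin-2 peak there. In the PBS list 7 of the 8 genes had a peak within 3 kb of a gene end, all but Klf15. The same held for 18.1% of 21887 protein-coding genes. After vasostatin-2 only Klf4 and Klf10, 2 of 8, had a listed peak there, against 13.8% of protein-coding genes. Both lists had such a peak at 2 of 8, against 9.01%. Counting only peaks with q of 1e-05 or less, the number of genes was 4 in PBS and 2 in vasostatin-2. These shares describe 8 genes picked for their known roles and with earlier results of these data known, so no test was made of them.

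Within the wider windows of 50 kb the difference between the lists was smaller. A PBS peak lay in the window of 7 of 8 genes and of 49.2% of protein-coding genes. A vasostatin-2 peak lay in the window of 5 of 8 and of 50% of protein-coding genes. Peaks of both lists were found at 5 of 8, against 36.4%. Scaled to 100 kb of window, KLF genes had 1.16 PBS peaks (95% Poisson interval 0.577 to 2.07), against 0.591 over the windows of all protein-coding genes. For vasostatin-2 the density was 0.736 (0.296 to 1.52) against 0.583. Both intervals take in the value over all genes, the PBS one only narrowly.

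**Figure D1:**
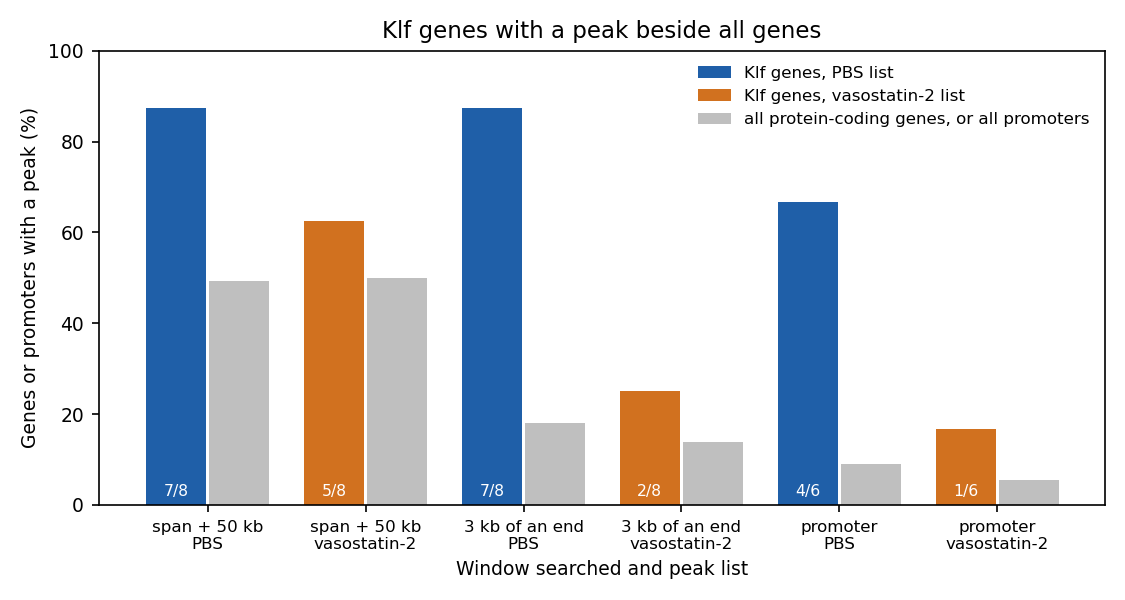
Percentage of Klf genes (coloured bars, with the number of genes in white) and of all protein-coding genes or all RefSeq promoters (grey bars) that had an NR1D1 peak, on the y axis, for 3 windows and both lists, on the x axis. Klf genes within 3 kb of an end reached 7 of 8 for PBS and 2 of 8 for vasostatin-2, beside 18.1% and 13.8% of all genes.

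The promoter sequences that the peaks covered are shown first. Of the 6 promoters that could be matched, 4 overlapped a PBS peak, against 8.96% of all RefSeq promoter windows. A vasostatin-2 peak reached 1, that of Klf4, against 5.58% of all windows. The 4 were in no vasostatin-2 peak, and how many of all promoters were in a PBS peak alone was not counted. RefSeq promoter windows of GRCm38.p6 (the assembly of mm10) run from 250 bases before to 50 after the start site, and Klf5 and Klf10 had no entry. The 250 bases upstream of the start are printed 5′ to 3′ on the gene's own strand for the 4 promoters with a PBS peak, and for Klf4, the promoter that a vasostatin-2 peak reached. Capitals mark matches on either strand to the GC box GGGCGG, the CACCC box (matches can share bases with each other) and the E-box CACGTG, the element of the clock activators.
Klf2, chr8:72318812-72319061, + strand: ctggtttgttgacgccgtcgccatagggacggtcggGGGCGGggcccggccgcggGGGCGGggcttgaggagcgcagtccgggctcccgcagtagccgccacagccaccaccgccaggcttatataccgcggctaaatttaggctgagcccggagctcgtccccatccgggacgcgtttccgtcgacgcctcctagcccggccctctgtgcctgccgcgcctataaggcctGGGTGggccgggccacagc
Klf9, chr19:23140976-23141225, + strand: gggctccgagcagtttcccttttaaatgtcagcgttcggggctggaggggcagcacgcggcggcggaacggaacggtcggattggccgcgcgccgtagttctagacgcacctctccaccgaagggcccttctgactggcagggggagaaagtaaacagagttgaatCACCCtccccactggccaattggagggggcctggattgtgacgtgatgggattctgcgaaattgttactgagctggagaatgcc
Klf13, chr7:63938916-63939165, - strand: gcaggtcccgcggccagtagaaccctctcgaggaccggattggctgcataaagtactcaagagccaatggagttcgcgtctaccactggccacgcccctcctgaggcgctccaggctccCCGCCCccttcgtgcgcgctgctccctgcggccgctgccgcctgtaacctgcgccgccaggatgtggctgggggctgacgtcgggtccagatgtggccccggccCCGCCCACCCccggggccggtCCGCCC
Klf6, chr13:5861239-5861488, + strand: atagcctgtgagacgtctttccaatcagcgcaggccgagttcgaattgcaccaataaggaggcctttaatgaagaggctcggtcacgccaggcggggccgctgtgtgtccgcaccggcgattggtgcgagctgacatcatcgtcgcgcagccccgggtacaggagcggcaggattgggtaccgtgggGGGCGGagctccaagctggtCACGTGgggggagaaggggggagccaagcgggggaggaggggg
Klf4, chr4:55532476-55532725, - strand: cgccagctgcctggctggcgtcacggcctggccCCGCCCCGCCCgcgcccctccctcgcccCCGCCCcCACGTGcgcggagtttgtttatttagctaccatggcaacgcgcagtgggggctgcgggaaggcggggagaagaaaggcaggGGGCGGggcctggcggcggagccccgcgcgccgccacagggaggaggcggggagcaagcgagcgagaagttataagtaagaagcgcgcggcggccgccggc

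PBS peaks covered all 250 of these bases at Klf2 and Klf13, 244 at Klf9 and 203 at Klf6. At Klf4 the PBS peak began directly beyond the stretch and covered 0 bases of it, while the vasostatin-2 peak covered 34. Over all 32851 RefSeq promoter windows, 8.96% overlapped a PBS peak and 5.58% a vasostatin-2 peak. The Klf promoters are rich in G and C, with 71.2% in the Klf2 stretch, 74.0% in Klf4, 71.6% in Klf13, 64.8% in Klf6 and 59.6% in Klf9. The Klf15 stretch, not printed and under no peak of either list, had 72%. The median over all promoters was 52.4%, and over those under a PBS peak 63.2%.

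None of the 6 matched Klf promoters held the AGGTCA hexamer, which 16.3% of all promoter windows held on either strand. None held the RORE consensus (0.384% of all windows) or AGGTCA repeated in the same direction with 2 bases between (0.00913%). Absence of these letters from a 300 bp window does not by itself show whether NR1D1 binds there, and how it binds was not tested. GC boxes were found 2 times at Klf2, 4 at Klf4, 3 at Klf13, 1 at Klf6 and 1 at Klf15, and 0 times at Klf9. Such a box was present in 35.7% of all windows. The E-box CACGTG stood 1 time each at Klf4 and Klf6 and 3 times at Klf15, whose promoter lay under no peak, and 7.15% of all windows held it. CACCC boxes, present in 57.5% of windows, occurred 1 time each at Klf2, Klf9, Klf13 and Klf15.

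Peaks at the starts of Klf9 and Klf13 were the strongest of those listed in PBS alone. Klf9 encodes a repressor induced by glucocorticoids, and lies on chromosome 19 at 23141226 to 23168129 of mm10. Its promoter peak at 23140774 to 23141219 was 446 bp wide, with the summit 134 bp upstream of the start. The PBS summit held 20 fragments (95% Poisson interval 12.2 to 30.9) over a local background of 1.66, the authors' fold enrichment was 7.91 and the -log10 q was 11.3. By fold it ranked at percentile 88.0 of the PBS list. The nearest vasostatin-2 peak was 5455 bp away, so the vasostatin-2 library has no listed value at this promoter.

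Klf13, a factor known for controlling chemokine expression in lymphocytes, lies on chromosome 7 at 63886351 to 63938915. It had 1 peak in PBS, at 63938664 to 63939333, 670 bp wide, with its summit 87 bp upstream of the start. That summit also held 20 fragments (12.2 to 30.9), at 7.49-fold and a -log10 q of 10.7. No vasostatin-2 peak lay in its window, the nearest being 134637 bp from the gene. A PBS summit of 20 fragments would correspond to 26.4 at the inferred depth of the vasostatin-2 library if depth alone differed. For comparison by strength, a peak of the whole list was counted as a gene-end peak when its summit lay within 1 kb of an end of any annotated gene. Of 44 such PBS peaks with exactly 20 fragments, 75% overlapped a vasostatin-2 peak, so a missing counterpart was the less common case at this strength. Shared gene-end pairs with 13 to 39 fragments together had a median depth-scaled log2 ratio of vasostatin-2 to PBS fragments of -0.79 (quartiles -1.14 to -0.53). In most such pairs the vasostatin-2 count was therefore below the one that depth alone would give.

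Klf2, a flow-induced factor of endothelial cells, lies on chromosome 8 at 72319062 to 72321654. Its peak in PBS, at 72318770 to 72319141, spanned the start site and had its summit 129 bp upstream. It held 13 fragments (6.92 to 22.2) at 7.44-fold. The vasostatin-2 peak nearest to the gene was 206689 bp away. Among 138 PBS gene-end peaks of 13 fragments, 60.1% had a vasostatin-2 counterpart.

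Klf6, an early response gene of injured tissue, lies on chromosome 13 at 5861489 to 5870393. Its promoter peak in PBS, at 5861175 to 5861441, was weaker, with 9 fragments (4.12 to 17.1), 5.00-fold enrichment and the summit 301 bp upstream. At that strength 40.3% of 268 PBS gene-end peaks had a counterpart. A missing counterpart was thus common among PBS peaks of the size of those at Klf2 and Klf6.

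**Figure D2:**
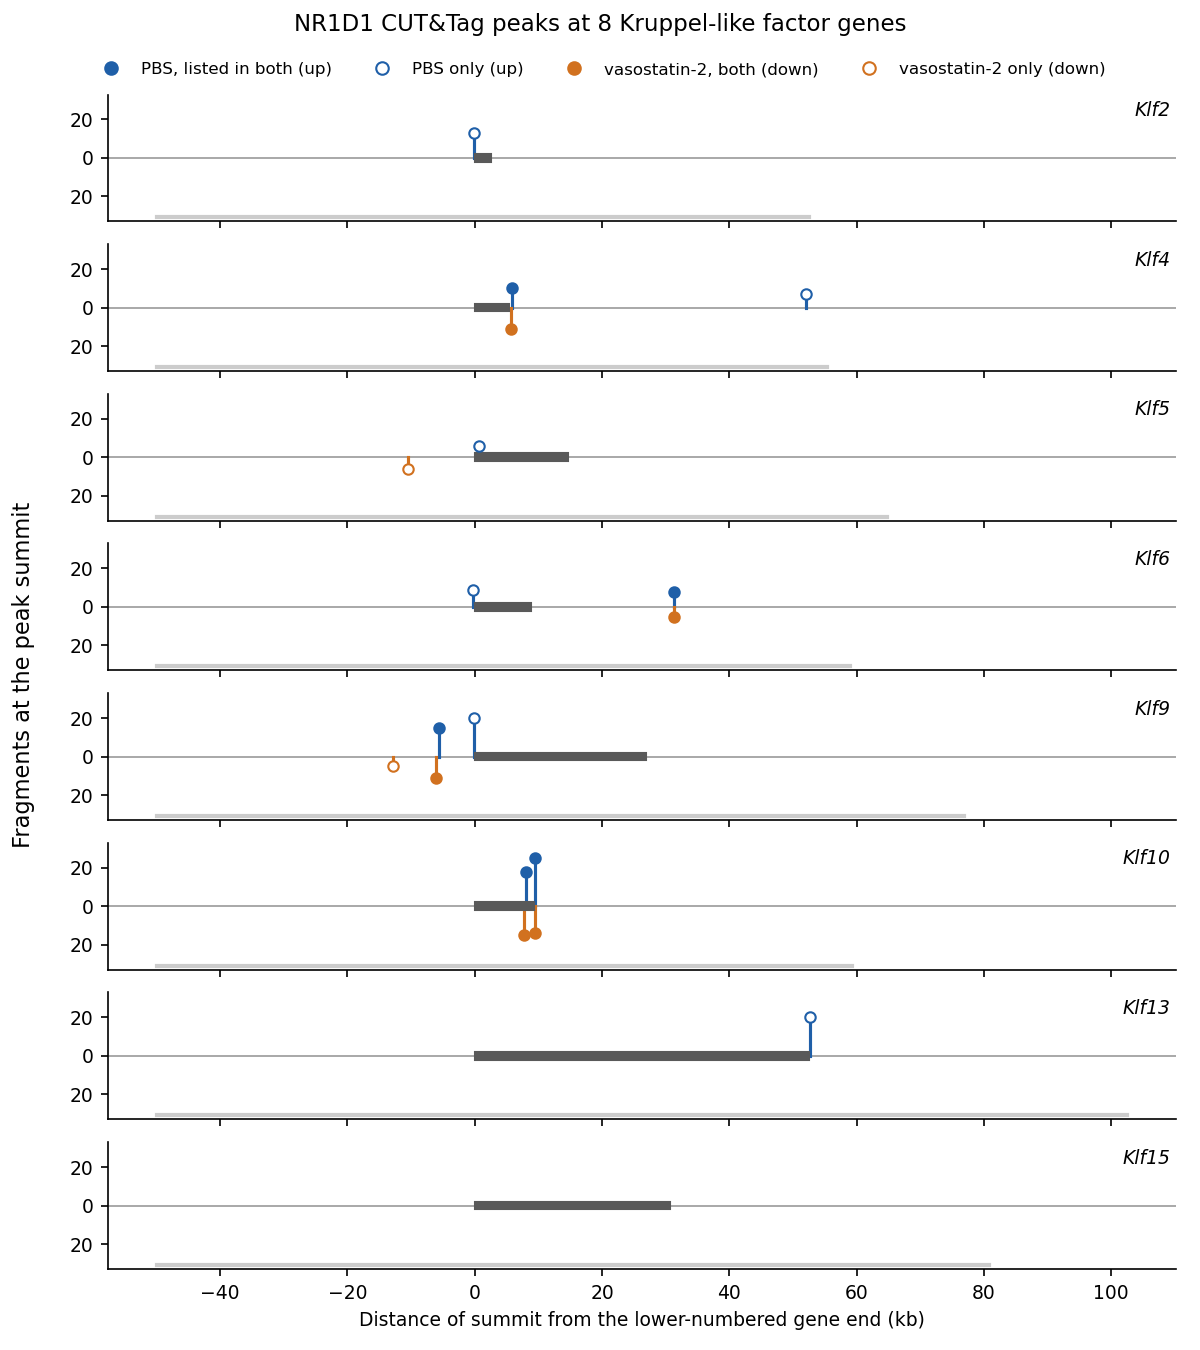
Summit positions (x axis, kb from the lower-numbered end of the gene) and fragments at the summit (y axis) for PBS peaks, drawn upwards, and vasostatin-2 peaks, drawn downwards, at the 8 genes. Dark bars are gene spans, light bars the searched windows, and filled points peaks that overlap one in the other list. Klf10 has filled points in both directions at one end, while Klf2, Klf9 and Klf13 have an open PBS point at theirs and Klf15 has none.

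At Klf10 both libraries had a cluster of peaks, and its 25 fragments were the most at any of the 8 genes. Klf10, an early gene of TGF-beta signalling that is also a clock output, lies on chromosome 15 at 38291464 to 38300711. The outer peak was at 38300764 to 38301032 in PBS, 233 bp beyond the higher-numbered gene end. Its summit held 25 fragments (16.2 to 36.9) in PBS and 14 (7.65 to 23.5) in vasostatin-2, and the summits lay 3 bp apart. The fold was 7.60 in PBS and 5.56 in vasostatin-2. All 28 PBS peaks with 25 fragments anywhere in the genome had a vasostatin-2 counterpart (100%).

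A second Klf10 peak lay inside the gene, at 38299179 to 38299573 in PBS, with its summit 1209 bp from the same end. It held 18 fragments (10.7 to 28.4) in PBS and 15 (8.40 to 24.7) in vasostatin-2. The summits lay 262 bp apart, so the counts come from different positions of the overlapping peaks. The local background here was 2.44 fragments in PBS, the highest at any KLF peak, and the fold of 5.53 was therefore lower than at Klf2, where 13 fragments stood over a background of 0.881. In vasostatin-2 the inner Klf10 summit was the higher one by fold, 5.87 against 5.56, while in PBS the outer one was. The noncoding gene Gm35248 overlaps this stretch of Klf10, so the peaks cannot be assigned to one of them.

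Scaled for depth, the outer Klf10 summit had a log2 ratio of vasostatin-2 to PBS fragments of -1.24 (95% exact counting interval -2.29 to -0.24). For the inner summit it was -0.66 (-1.76 to 0.41), an interval that includes 0. Without the depth factor the outer value was -0.84 (-1.89 to 0.16), which includes 0 as well. The lower signal at the outer site thus lies outside counting error only with the inferred depth. Across all 1069 pairs of shared peaks at gene ends (PBS summit within 1 kb of any annotated end) with 13 to 39 fragments together, the range of the KLF pairs, the median log2 ratio was -0.79 (quartiles -1.14 to -0.53). The outer Klf10 value was below the lower quartile and the inner one between the quartiles. Both Klf10 intervals include the median of -0.79, so counting error does not separate either site from the other gene-end pairs.

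At Klf4 the fragment counts of the libraries were the closest of the 5 shared sites. It lies on chromosome 4 at 55527137 to 55532475, and its peak was just upstream of the start, at 55532726 to 55532982 in PBS and 55532692 to 55533103 in vasostatin-2. The PBS summit, 487 bp upstream, held 10 fragments (4.80 to 18.4) at 5.40-fold. The vasostatin-2 summit, 419 bp upstream, held 11 (5.49 to 19.7) at 7.32-fold. By fold the peak ranked at percentile 53.1 among PBS peaks and at percentile 88.6 among vasostatin-2 peaks. The local background was 1.04 fragments in PBS and 0.639 in vasostatin-2, so the folds differed more than the counts. The ratio scaled for depth was -0.26 (-1.64 to 1.13), which counting error does not separate from 0 nor from the median of gene-end pairs. The summits also lay inside Gm12506, a noncoding RNA gene that starts on the opposite strand at 252 bp from the PBS summit, so the site cannot be assigned to one of the genes.

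A second Klf4 peak was found in PBS alone, at 55578919 to 55579164, far upstream with its summit 46681 bp from the start. It held 7 fragments (2.81 to 14.4) at 6.09-fold, inside the noncoding genes Gm12506 and Gm12511. Of 864 PBS peaks with 7 fragments 23.7% had a counterpart, so its absence from the other list was the usual case.

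Klf5 had only weak peaks, at different sites in the lists. The gene lies on chromosome 14 at 99298691 to 99313412. In PBS a peak at 99299124 to 99299347 lay inside the gene, 613 bp from its lower-numbered end, with 6 fragments (2.2 to 13.1) at 4.79-fold. In vasostatin-2 a peak at 99288140 to 99288337 lay 10468 bp outside the same end, also with 6 fragments (2.2 to 13.1), at 5.07-fold. The peaks were 10787 bp apart. Of PBS gene-end peaks with 6 fragments 13.7% of 270 were shared, so a missing counterpart was the usual case there too.

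Klf9 had further peaks upstream of its promoter. One was in both lists, at 23134942 to 23136014 in PBS (1073 bp wide) and 23134878 to 23135319 in vasostatin-2, inside the noncoding gene 2410080I02Rik. The PBS summit held 15 fragments (8.40 to 24.7), 5686 bp from Klf9, and the vasostatin-2 summit 11 (5.49 to 19.7), 6053 bp from it. These summits lay 367 bp apart, so the counts come from different positions of the overlapping peaks. The ratio scaled for depth was -0.85 (-2.12 to 0.37). Over all 2139 shared pairs with 13 to 39 fragments together, at gene ends or not, the median was -0.62 (quartiles -0.99 to -0.21), and the Klf9 value lay between the quartiles. A weak vasostatin-2 peak without counterpart, with 5 fragments (1.62 to 11.7) at 3.79-fold, lay 12792 bp upstream. So at Klf9 the vasostatin-2 list held the upstream site, with fewer fragments than PBS, and not the promoter.

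The remaining shared site lay beyond Klf6, at 5892660 to 5892975, with its PBS summit 22479 bp past the higher-numbered gene end. The PBS summit held 8 fragments (3.45 to 15.8) and the vasostatin-2 summit 5 (1.62 to 11.7), at 5.96-fold and 4.25-fold. The ratio scaled for depth was -1.08 (-3.04 to 0.72), below the lower quartile of -0.99 over all such pairs but with an interval that includes their median of -0.62 and 0. It is the pair with the fewest fragments, and its interval is the widest.

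Klf15, a factor known for restraining smooth muscle growth and for rhythmic metabolism, had no peak in either window. The gene lies on chromosome 6 at 90461043 to 90491803. The nearest PBS peak was 112851 bp from it, with 7 fragments, and the nearest vasostatin-2 peak 80589 bp, with 11 fragments. Of the rhythmic members Klf9 and Klf10 carried peaks, and Klf15 did not. Of all protein-coding genes 49.2% had a PBS peak in such a window and 50% a vasostatin-2 peak. A window without a peak was thus common in each list.

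**Figure D3:**
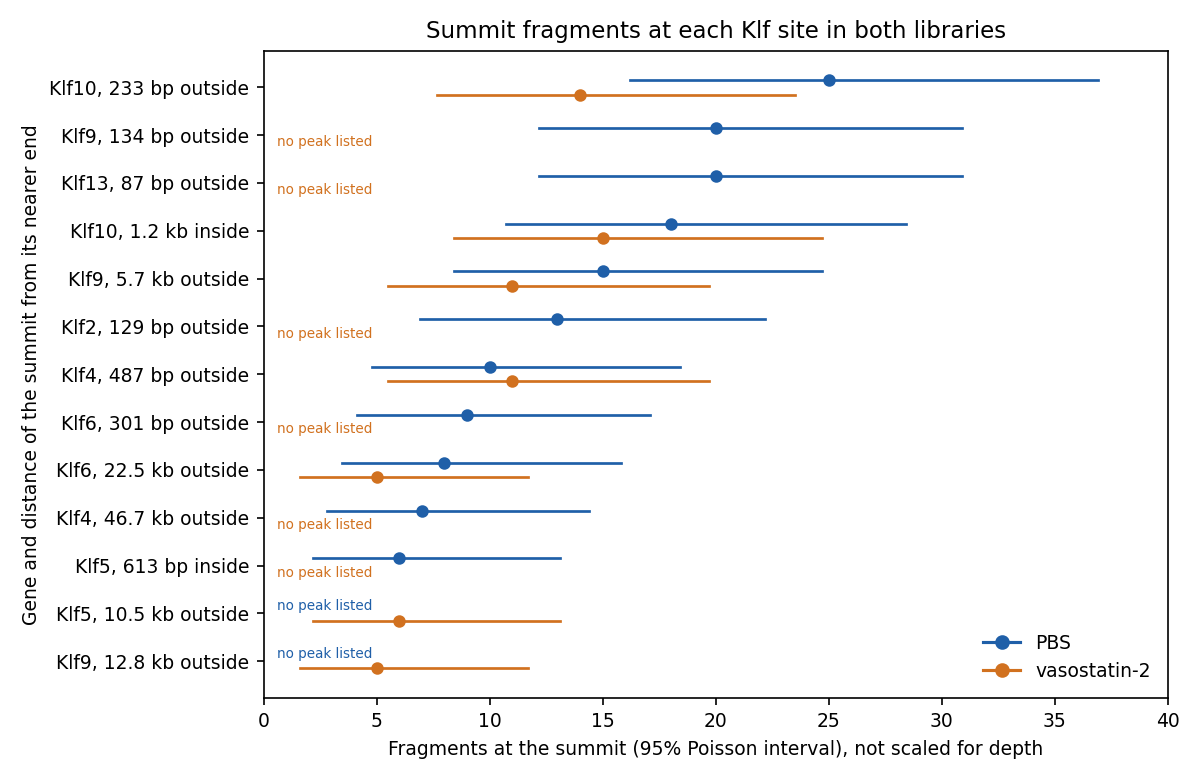
Fragments at the summit (x axis) for every KLF site (y axis, with the distance of the listed summit from the nearer gene end) in PBS (blue) and vasostatin-2 (orange), with 95% Poisson intervals and no scaling for depth. Of the 5 sites in both lists, Klf4 alone has the larger count in vasostatin-2, 11 against 10, and the intervals overlap at each of the 5.

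Counterparts, defined by an overlap of 1 bp or more, existed for 5 of the 11 PBS peaks (45.5%, 95% exact binomial interval 16.7 to 76.6), against 35.6% of all PBS peaks. They existed for 5 of the 7 vasostatin-2 peaks (71.4%, 29.0 to 96.3), against 30.0% of all vasostatin-2 peaks. Both intervals include the share of the whole list. They treat peaks of 1 library as independent, and the whole-list shares are not matched for fragments, so this comparison is no test. A stricter rule gave fewer counterparts. With summits within 200 bp they were 3 of 11 and 3 of 7, and with reciprocal overlap of 50% 4 of 11 and 4 of 7. The 2 vasostatin-2 peaks without a counterpart held 5 and 6 fragments, and the 6 PBS peaks without one held 6 to 20. Of 1455 vasostatin-2 peaks with 5 fragments 7.22% were shared, and of 1400 with 6 fragments 14%. A missing counterpart was thus the usual case for these 2 vasostatin-2 peaks.

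A summit within 1 kb of the end of any annotated gene was seen for 8 of 11 KLF peaks in PBS (72.7%, exact interval 39.0 to 94.0), against 40.2% of all PBS peaks. For vasostatin-2 it was 4 of 7 (57.1%, 18.4 to 90.1), against 25% of all. Both intervals include the share of the whole list, but they too treat peaks of 1 library as independent and are no test. Some of these summits were farther than 1 kb from either end of the KLF gene and counted through a noncoding neighbour. They were the inner Klf10 summits, 755 bp in PBS and 493 bp in vasostatin-2 from an end of Gm35248, and the vasostatin-2 summit in 2410080I02Rik upstream of Klf9, 675 bp from an end of it.

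**Figure D4:**
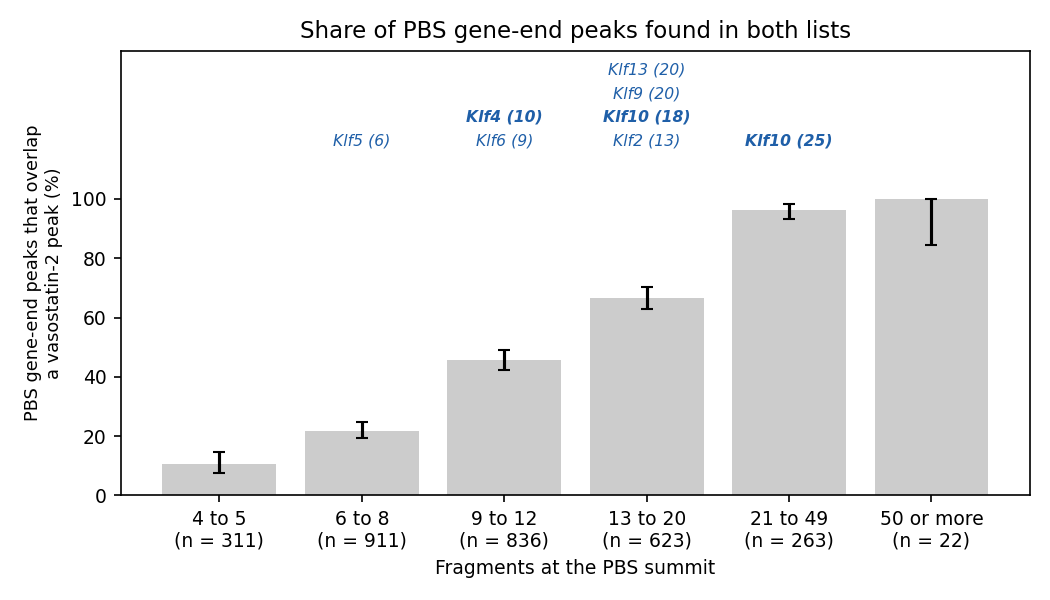
Percentage of PBS peaks at gene ends that overlapped a vasostatin-2 peak (y axis, bars with 95% exact binomial intervals) by fragments at the PBS summit (x axis, number of peaks in brackets). Names above the bars place the Klf peaks by their fragments, in bold where they had a counterpart: with 13 to 20 fragments 66.6% of 623 peaks were shared, and Klf10 was, while Klf2, Klf9 and Klf13 were not.

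The relatives of these genes were read for the same windows. Of 18 other Kruppel-like and Sp family genes 5 (27.8%) had a PBS peak within 3 kb of an end, against 18.1% of protein-coding genes. For vasostatin-2 it was 6 (33.3%) against 13.8%, and for both lists 4 (22.2%) against 9.01%. Those in both were Klf3, Klf16, Sp1 and Sp4. Klf16, a repressor close to Klf9 and Klf13 in sequence, had 48 fragments at 12.5-fold in PBS and 27 at 9.91-fold in vasostatin-2, more than any of the 8 genes above. Sp1, a ubiquitous activator at GC boxes, had 34 fragments at 8.29-fold in PBS and 20 at 6.68-fold in vasostatin-2. At Klf3 the peaks of the lists did not overlap, with 9 and 10 fragments. Klf7 had a peak at an end in PBS alone (14 fragments, 8.23-fold), and Klf11 (8 fragments) and Sp3 (7 fragments) in vasostatin-2 alone. As shares the relatives had 27.8% in PBS and 33.3% in vasostatin-2, and the 8 genes 87.5% and 25%; the difference between these contrasts was not tested.

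Genes that act with Klf4 and Klf5 in smooth muscle formed the last list, with 12 members. A peak within 3 kb of an end was present for 5 in PBS (41.7%, against 18.1% of protein-coding genes), for 4 in vasostatin-2 (33.3%, against 13.8%) and for 3 in both (25%, against 9.01%). The 3, named after their values were seen, were Mrtfa, Hdac2 and Sp1, the last of which is also among the relatives. Mrtfa, which encodes a coactivator of SRF that responds to actin, had 9 fragments in PBS and 8 in vasostatin-2. Hdac2, a histone deacetylase, had 13 and 8. Myocd, the coactivator gene that defines the contractile state, had no peak near an end in either list, and 1 vasostatin-2 peak in its 50 kb window. Mef2c, Pdgfb, Pdgfrb, Rara and Hdac5 also had none near an end, as was the case for most protein-coding genes.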

How the data were processed

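NR1D1 CUT&Tag peak lists of 1 PBS and 1 vasostatin-2 library were used. Trimmomatic 0.39, BWA 0.7.17 and MACS2 2.2.7.1 and build mm10 are named without roles or settings, per the submitters' processing notes, which do not say whether peaks were called against IgG. The deposited fold ratio (column 7) compares the summit with its local background, 1 added to both. The deposited -log10 p and -log10 q belong to the summit. The deposited score is 10 times the -log10 q, rounded down, and was not used. All of these are the authors' values and rank peaks only within their own list.

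Fragments at each summit and their background were recovered by solving the caller's Poisson formula (scipy 1.17.1). A whole number fitted within 0.0005 of the -log10 p for 100% of peaks. Of 3000 peaks simulated with the same formula 100% were returned, which checks the solving and not the formula. The relative depth of 1.32 came from the background's floor (0.31 and 0.381) and step (0.00979 and 0.00913 fragments). It assumes equal settings for both libraries and no IgG control in the peak calls, and neither could be checked. The lists hold called peaks only, so a site without a peak has no value. Shared peaks overlap by at least 1 bp, and pairs exist only where both lists called a peak. Gene spans are those of RefSeq on GRCm38.p6, given without strand; strand came from the promoter table where it had an entry. All 8 genes, 18 of 18 relatives and 12 of 12 partners were found by symbol.

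Members, gene lists and windows were chosen with earlier results of these data known. All 8 genes are named; among relatives those with a peak near an end in both lists, then up to 4 by fold. Alternatives varied the window, overlap rule, q, fragment minimum and depth scaling.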

Additional observations from a re-analysis of the deposited data

How the results depend on the processing

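Of the 31 alternatives 25 stayed within 1.5 times the reported count or inside the reported interval, and 6 did not. The alternatives without depth scaling could not leave their intervals. They shift every log2 ratio by the same amount, which is less than the reach of the intervals. The intervals of the shares were wide, so a share could change much and still lie inside. The PBS list held more KLF peaks and more KLF genes with a peak at an end than the vasostatin-2 list in each setting tried. With q of 1e-05 or less, KLF-window peaks fell to 6 in PBS and 3 in vasostatin-2, and PBS genes with a peak near an end to 4, with vasostatin-2 at 2 as before. With at least 8 fragments vasostatin-2 peaks fell to 4. Windows of 10 kb left 4 vasostatin-2 peaks, of which 100% were shared. In PBS 9 of 11 peaks remained with at least 8 fragments, and 9 with windows of 10 kb. What lay behind the 6 moves was not tested. Without scaling for depth the Klf4 log2 ratio was 0.14, on the other side of 0. The upper limit of the outer Klf10 ratio went from -0.24 to 0.16, so that its interval came to include 0. No paired analysis was possible because each treatment has 1 NR1D1 library. Leaving out a library was not possible for the same reason. Summits of 5 to 25 fragments limit all these comparisons.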

Other observations

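The site beyond Klf6 began at the same base in both lists, a start difference of 0 bp, with ends 10 bp apart. Of all 2651 overlapping pairs of peaks 154 (5.81%) began at the same base.

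The GC box GGGCGG was present in 77.0% of the 2944 promoter windows under a PBS peak and 78.1% of the 1834 under a vasostatin-2 peak, against 35.7% of all. AGGTCA was present in 10.1% and 9.92%, against 16.3%, and the E-box CACGTG in 10.3% and 9.11%, against 7.15%. The RORE consensus was present in 0.0679% (2 windows) and 0.164% (3 windows), against 0.384% of all. The direct repeat of AGGTCA was in 0 windows under either list, against 0.00913% of all. CACCC boxes were present in 64% and 65.5%, against 57.5%. The G and C content moves with the peaks, with a median of 63.2% under either list and 52.4% over all promoters, and its part in these shares was not tested.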
